A study of Mus musculus with 8 samples.

Results

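The Fc receptor genes described here are the 6 mouse genes Fcgr1, Fcgr3, Fcgr4, Fcer1g, Fcgr2b and Fcgrt. They were picked out by symbol among the 41388 gene identifiers counted in every library, all 6 were found, and all 6 were among the 12002 genes with enough counts for a test. The cells were microglia, the macrophages that reside in brain and spinal cord, taken from adult C57BL/6 mice and sorted on CD11c together with CD11b and CD45. The 3 groups were CD11c+ microglia (n = 2 libraries) and CD11c- microglia (n = 3) of mice with neuromyelitis optica (NMO), a neuroinflammatory disease that affects mainly the optic nerves and spinal cord, and microglia of control mice (n = 3). The control cells carry conflicting labels: 1 field calls them CD11c negative, whereas their titles name total microglia of unmanipulated animals. How the disease was induced, the age of the mice, and whether each library came from a separate animal are not stated in the labels, so the p-values describe the spread between these libraries, which may be technical.

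Fc receptors bind the constant region of antibodies. The activating Fc gamma receptors encoded by Fcgr1, Fcgr3 and Fcgr4 signal through a shared chain, FcR gamma, which is the product of Fcer1g and carries an immunoreceptor tyrosine-based activation motif (ITAM), and their engagement by IgG drives phagocytosis, oxidant release and cytokine production. The receptor encoded by Fcgr2b carries an inhibitory motif (ITIM) and restrains the activating receptors on the same cell, while the neonatal Fc receptor encoded by Fcgrt pairs with beta-2-microglobulin and returns IgG from endosomes to the cell surface. In patients with NMO the disease is driven mainly by IgG against the water channel aquaporin-4, and microglia are among the cells of the central nervous system that carry Fc gamma receptors.

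The libraries held 4943207 and 5914412 gene counts in the CD11c+ group, 6437516 to 6819662 in the NMO CD11c- group and 7500815 to 9246061 in the controls. Levels are given as CPM, that is, counts scaled to a common library size after TMM normalisation. Itgax, which encodes CD11c, was at 188 and 181 CPM in the CD11c+ libraries, 35.5 to 41.2 CPM in the NMO CD11c- libraries and 30.6 to 32.1 CPM in the controls, in the order of the sort labels. The microglial gene Csf1r was abundant throughout, at 12380, 12200 and 12420 CPM in the CD11c+, NMO CD11c- and control groups. Other microglial genes differed: P2ry12 was at 2355, 3367 and 4748 CPM and Cx3cr1 at 4553, 5636 and 7464 CPM in that order. Of 10 microglial genes, the edgeR test used below called 4 lower and 0 higher in CD11c+ against control cells. Over all genes 3.36% were called lower there. The 4 were P2ry12, Cx3cr1, Siglech and Gpr34. In CD11c+ replicate 1 a gene's deviation from its mean rose with its GC content (Spearman correlation over genes 0.592, against -0.299 to -0.0378 in the other libraries). This library is named below for several results, and it enters every CD11c+ mean, also where it is not named. Library numbers run from 21 to 23 in the controls and from 7 to 12 in the NMO groups, and no batch is labelled, so disease and any separate handling cannot be told apart.

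Among the 6 genes, Fcgr4 was the only one called in any comparison, by edgeR's quasi-likelihood test with Benjamini-Hochberg adjustment over all 12002 genes. It was about 3 times as high in both NMO populations as in control microglia, with a fold of 2.97 in CD11c- and 3.22 in CD11c+ cells. The 3 comparisons draw on the same libraries: both NMO groups were set against the same controls. Between CD11c+ and CD11c- microglia of NMO mice, 0 of 6 genes were called, 0 had an unadjusted p under 0.05, and 0 were called by DESeq2 or by the edgeR exact test. Of all genes tested there, 0.100% were called higher and 0.183% lower (12 and 22 genes, or 8 and 24 when libraries were scaled by their totals alone). In NMO CD11c- against control cells 1 of 6 was called higher, where 3.0% of all genes were called higher and 0.717% lower. In NMO CD11c+ against control cells 1 of 6 was again called higher, where 6.85% of all genes were called higher and 3.36% lower. The CD11c+ libraries weigh on these counts: without CD11c+ replicate 2 the fit called 1435 genes higher and 1581 lower of 12458 between the subsets, 2019 and 2058 in CD11c+ and 780 and 401 in CD11c- against control cells. Without CD11c+ replicate 1 the counts were 4 and 0 of 12434 between the subsets, 651 and 227 in CD11c+ and 788 and 405 in CD11c- against control cells. With the neutrophil covariate used below they were 0 and 0 of 12002 between the subsets, 5 and 0 in CD11c+ and 21 and 0 in CD11c- against control cells.

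Without regard to a test, the libraries of the 2 groups did not overlap for 0 of 6 genes between the NMO subsets, where 28.0% of all tested genes did not overlap. For NMO CD11c- against control cells 4 of 6 genes did not overlap, Fcgr4, Fcgr2b and Fcer1g on the higher side and Fcgrt on the lower, where the share over all genes was 33.8%. For NMO CD11c+ against control cells 2 of 6 did not overlap, Fcgr4 and Fcer1g, both higher, where the share over all genes was 43.7%. The median log2 fold change of the 6 genes was 0.09, 0.20 and 0.25 in the same order, beside 0.01, -0.00 and 0.01 over all genes tested.

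**Figure D1:**
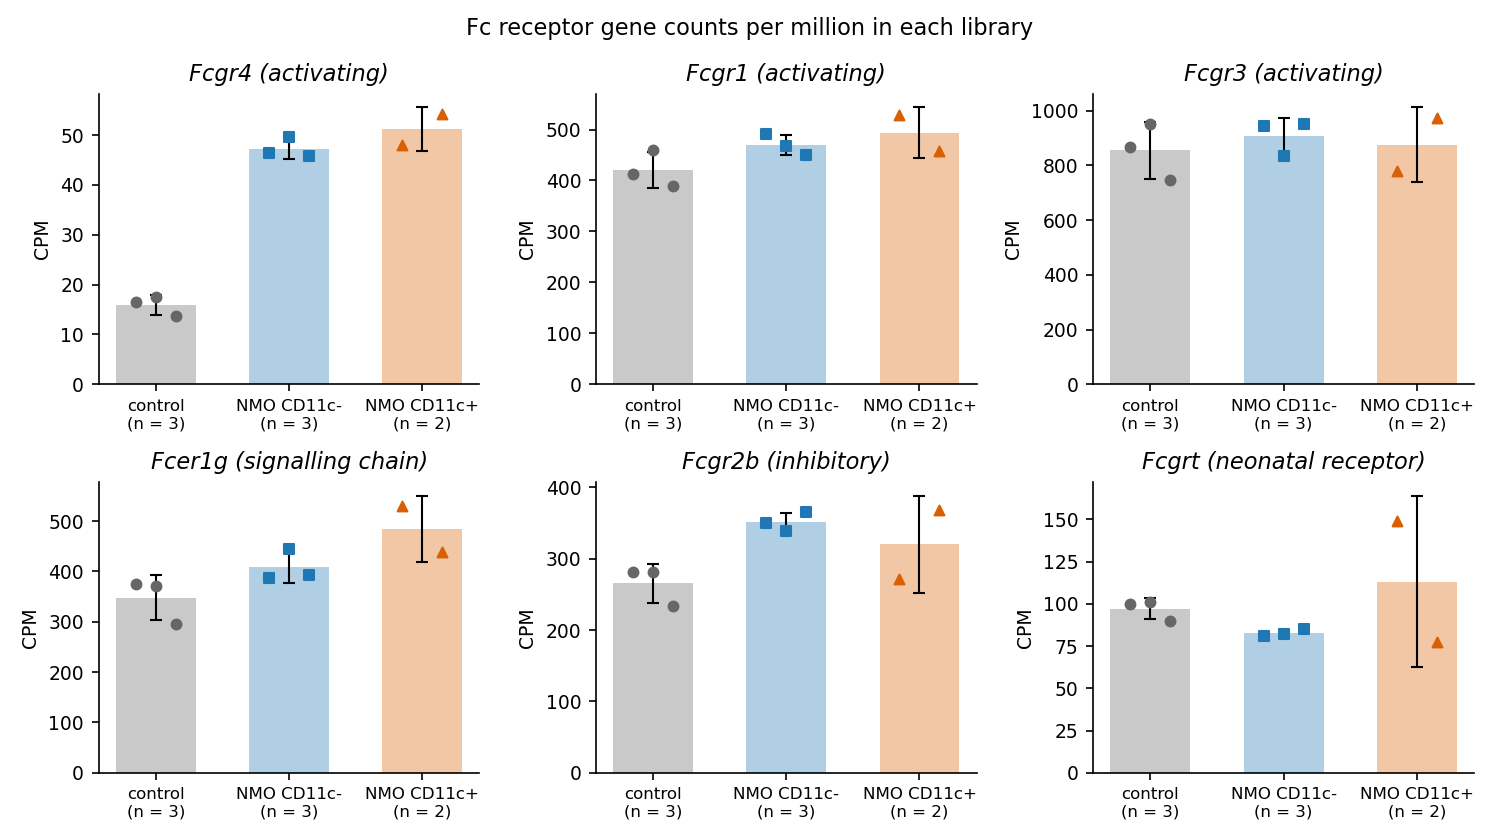
Level of each Fc receptor gene in CPM on a linear axis from 0, with 1 point per library, bars for group means and error bars for 1 SD (n = 3, 3 and 2 libraries). Only for Fcgr4 do all 5 NMO libraries (45.8 to 54.3 CPM) stand well apart from all 3 controls (13.6 to 17.5 CPM), and the 2 CD11c+ libraries are widely split for Fcgrt, at 149 and 77.3 CPM.

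Fcgr4 encodes FcγRIV, an activating receptor that binds the IgG2a and IgG2b subclasses of the mouse. Its level was 48.0 and 54.3 CPM in the 2 CD11c+ libraries, 46.4, 49.5 and 45.8 CPM in the 3 NMO CD11c- libraries, and 16.5, 17.5 and 13.6 CPM in the 3 controls. These values rest on 235 to 329 counts per NMO library and 104 to 163 counts per control library. Every NMO library was above every control, and the CD11c+ and CD11c- libraries overlapped. The group means were 51.1 ± 4.43 CPM (SD, n = 2), 47.3 ± 1.99 CPM (n = 3) and 15.9 ± 2.01 CPM (n = 3). Against controls the log2 fold change was 1.57 in CD11c- cells (SE 0.122, adjusted p = 0.000127, 95% interval 1.30 to 1.84) and 1.69 in CD11c+ cells (SE 0.133, adjusted p = 8.31e-05, 95% interval 1.39 to 1.98). By p-value the gene ranked 13 of 12002 in the former comparison and 24 of 12002 in the latter. The direct difference between the NMO subsets was 0.11 on the log2 scale (SE 0.129, adjusted p = 0.665), and its 95% interval of -0.17 to 0.40 covers both a small decrease and a small increase. In bulk libraries a change in the number of cells that carry a transcript and a change in the transcript per cell cannot be told apart. Fcgr4 stayed called against controls on leaving out each of the 8 libraries in turn, with log2 fold changes of 1.47 to 1.65 in CD11c- cells and 1.59 to 1.77 in CD11c+ cells.

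Neutrophils and some monocytes also carry FcγRIV, so the markers of both cell types were read beside it. The summed level of 10 neutrophil genes was 15.3 and 19.7 CPM in the CD11c+ libraries, 2067 to 10680 CPM in the NMO CD11c- libraries and 864 to 1774 CPM in the controls. Ly6g, the defining neutrophil antigen, had 0 counts in both CD11c+ libraries, where 0 counts allow up to 0.613 and 0.529 CPM, and means of 16.01 CPM in NMO CD11c- and 4.62 CPM in control cells. Fcgr4 was at 48.0 and 54.3 CPM in the CD11c+ libraries, whose neutrophil sums were below those of all controls. Within the NMO CD11c- group replicate 2 had the highest neutrophil sum, 10680 CPM, with Fcgr4 at 49.5 CPM, and replicate 3 the lowest, 2067 CPM, with Fcgr4 at 45.8 CPM. With the mean log2 level of these neutrophil genes as a covariate, Fcgr4 stayed called in CD11c- against control cells (log2 fold change 1.61, SE 0.231, adjusted p = 0.0371). In CD11c+ against control cells the estimate was similar but the error was larger and the call was lost (log2 fold change 1.58, SE 0.591, adjusted p = 0.725). In that model the covariate separates the CD11c+ libraries from the others. The part of neutrophils in the Fcgr4 level was not tested beyond this fit.

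The summed level of 10 monocyte genes was 43.0 and 63.1 CPM in the CD11c+ libraries, 195 to 984 CPM in the NMO CD11c- libraries and 87.3 to 166 CPM in the controls. Ly6c2, a marker of classical monocytes, was at 0.102, 18.1 and 4.64 CPM in the CD11c+, NMO CD11c- and control groups. Markers of the non-classical monocytes that carry FcγRIV were low or went another way than Fcgr4: Treml4 was at 0.468, 1.74 and 0.695 CPM and Ace at 13.7, 4.41 and 12.6 CPM. The CD11c+ mean of Ace joins libraries at 3.7 and 23.69 CPM. Fn1, which is on the same list, was at 22.7, 35.3 and 4.19 CPM and was called higher in both NMO groups than in controls. The part of monocytes in the Fcgr4 level was not tested.

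**Figure D2:**
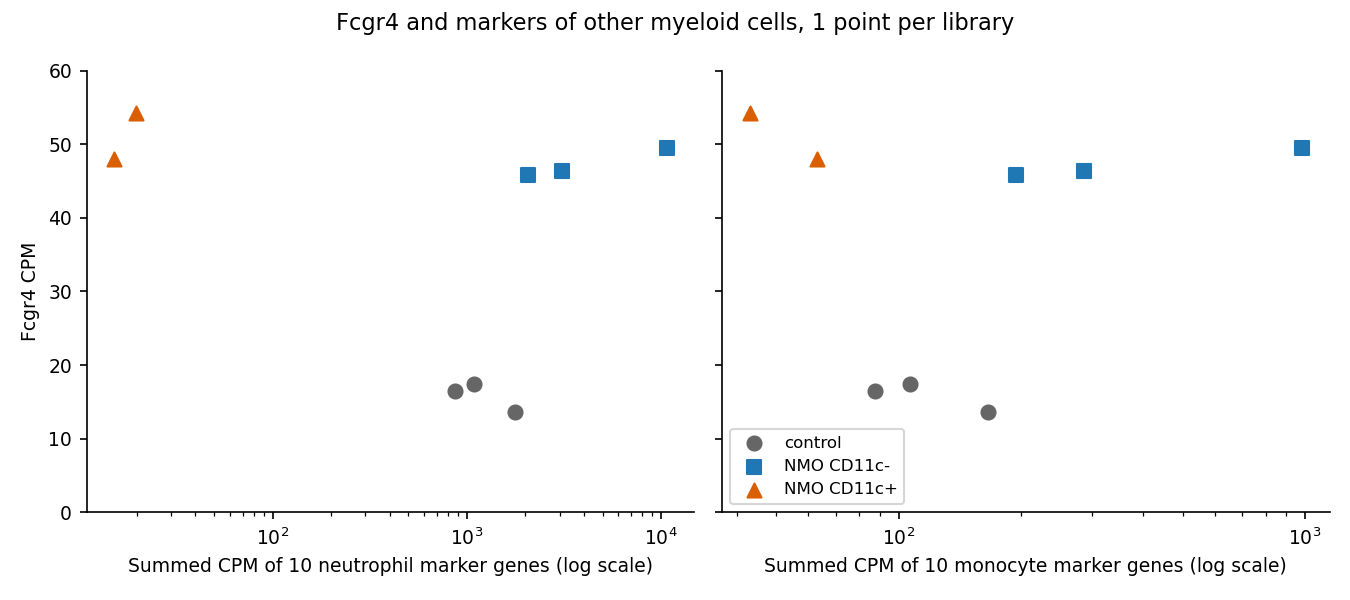
Fcgr4 level (CPM, linear axis) against the summed level of 10 neutrophil genes (left) and 10 monocyte genes (right), both in CPM on log axes, with 1 point per library. The CD11c+ libraries (triangles) have the lowest marker sums, 15.3 and 19.7 CPM for neutrophil genes, and Fcgr4 levels of 48.0 and 54.3 CPM, next to the CD11c- libraries (squares) and above the controls (circles).

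Fcgr4 (ENSMUSG00000059089) lies on the plus strand of chromosome 1 from 171018920 to 171029761 in GRCm38. Its neighbours are the Fcgr2b gene (170958617 to 170976547, minus strand) on 1 side and the Fcgr3 gene (171051174 to 171064935, minus strand) on the other, and Fcer1g (171229572 to 171234365, minus strand) lies further along. From the outer end of Fcgr2b to that of Fcer1g the interval spans 275.7 kb and holds 15 counted genes, of which 8 were tested. Of those 8, Fcgr4 alone was called in each comparison with controls, and 0 were called between the NMO subsets. This interval was chosen after its values were seen. The tested genes in it that are not Fc receptors, Sdhc, Cfap126, Pcp4l1 and Tomm40l, had log2 fold changes of -0.68 to 0.06 in CD11c- against control cells and of -1.15 to 0.16 in CD11c+ against control cells.

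The promoters of the 3 activating receptors are shown with their matches to 3 short motifs. Whether these motifs bear on the values above was not tested. Each sequence is a RefSeq promoter in GRCm38.p6, from 250 bases before to 50 bases after the annotated start. It is printed 5′ to 3′ along the gene's strand, with the motif matches in capitals. The positions are chr1:171018676-171018975 (plus strand) for Fcgr4, chr3:96293920-96294219 (minus strand) for Fcgr1 and chr1:171059354-171059653 (minus strand) for Fcgr3. Motifs were searched on both strands.
Fcgr4: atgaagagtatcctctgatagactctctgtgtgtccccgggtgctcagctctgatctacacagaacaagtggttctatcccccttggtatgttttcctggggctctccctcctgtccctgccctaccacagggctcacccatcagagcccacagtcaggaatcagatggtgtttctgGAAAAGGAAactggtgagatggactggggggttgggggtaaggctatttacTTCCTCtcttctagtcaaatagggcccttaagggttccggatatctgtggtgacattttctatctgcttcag
Fcgr1: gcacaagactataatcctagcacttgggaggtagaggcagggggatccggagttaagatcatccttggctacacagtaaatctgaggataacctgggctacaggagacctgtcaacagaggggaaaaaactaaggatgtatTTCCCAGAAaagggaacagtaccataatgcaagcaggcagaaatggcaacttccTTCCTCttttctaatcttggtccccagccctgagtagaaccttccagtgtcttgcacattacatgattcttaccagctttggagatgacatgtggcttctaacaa
Fcgr3: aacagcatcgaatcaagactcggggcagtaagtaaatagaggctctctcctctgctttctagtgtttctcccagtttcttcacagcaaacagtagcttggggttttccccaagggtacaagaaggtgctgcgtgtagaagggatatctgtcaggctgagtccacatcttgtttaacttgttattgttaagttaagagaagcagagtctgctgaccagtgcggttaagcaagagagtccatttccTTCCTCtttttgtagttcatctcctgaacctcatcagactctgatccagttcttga
The Fcgr4 promoter holds GAAAAGGAA, a match to the interferon-stimulated response element core GAAANNGAA, from 73 to 65 bases before the start (written as -73 to -65). The Fcgr1 promoter holds TTCCCAGAA, a match to the gamma-activated site TTCNNNGAA, at -109 to -101. All 3 hold TTCCTC, the reverse complement of the PU.1 box GAGGAA, at -22 to -17 in Fcgr4, -55 to -50 in Fcgr1 and -6 to -1 in Fcgr3. A second RefSeq promoter of Fcgr3, chr1:171059345-171059644, holds the same match at -15 to -10. Both Fcgr3 windows lie inside the gene span given above. Such short motifs are common: of 32851 RefSeq promoters of 300 bases, 8.56% hold GAAANNGAA, 8.3% hold TTCNNNGAA and 28.3% hold GAGGAA. No match to any of the 3 motifs was found in the promoter windows of Fcgr2b, Fcer1g or Fcgrt. Binding to these promoters was not measured.

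Fcgr1 (ENSMUSG00000015947, chromosome 3 from 96282909 to 96293969, minus strand) encodes FcγRI, the high-affinity receptor that can hold monomeric IgG. Its level was 529 and 458 CPM in the CD11c+ libraries, 490.2, 468 and 450.2 CPM in the NMO CD11c- libraries, and 414, 459 and 389 CPM in the controls. The highest control lay within the range of both NMO groups, so no pair of groups was separate. The log2 fold change was 0.16 in CD11c- against control cells (SE 0.111, adjusted p = 0.489) and 0.23 in CD11c+ against control cells (SE 0.123, adjusted p = 0.245). The upper bounds of the 95% intervals were 0.40 and 0.50, below the lower bounds of 1.30 and 1.39 for Fcgr4. Between the NMO subsets the difference was 0.07 (95% interval -0.20 to 0.35).

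Fcgr3 (ENSMUSG00000059498) encodes FcγRIII, the low-affinity activating receptor for immune complexes. It was at 778 and 972 CPM in the CD11c+ libraries, 942, 835 and 949.8 CPM in the NMO CD11c- libraries, and 867, 951 and 746 CPM in the controls, and all 3 groups overlapped. The log2 fold change was 0.09 in CD11c- against control cells (95% interval -0.21 to 0.39), 0.03 in CD11c+ against control cells (-0.30 to 0.37) and -0.05 between the NMO subsets (-0.39 to 0.28). Of the 3 activating receptors Fcgr3 had the smallest log2 fold changes against controls and the highest level. Fcgr3 and Fcgr2b share stretches of sequence: of the 50-base windows of the longest Fcgr3 transcript, 12.8% also occur in Fcgr2b, and 3.53% of its 100-base windows do. The labels do not state the read length, so counts may be lost or shifted between these 2 genes. Of the windows of the longest Fcgr2b transcript, 8.6% of 50 bases and 5.7% of 100 bases occur in other genes. Among these are Cplx2, Gm47409 and Rab3c besides Fcgr3, so Fcgr2b counts may be lost there too. Fcgr1, Fcgr4, Fcer1g and Fcgrt share 0% of such windows with another gene.

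Fcer1g (ENSMUSG00000058715) encodes the FcR gamma chain, without which the activating receptors do not reach the cell surface in stable form. It was at 531 and 438 CPM in the CD11c+ libraries, 387, 445 and 392 CPM in the NMO CD11c- libraries, and 376, 370.5 and 296 CPM in the controls. Every NMO library was above every control, but the distance was small against the spread. The log2 fold change in CD11c+ against control cells was 0.48 (SE 0.145, 95% interval 0.16 to 0.80), with an unadjusted edgeR p of 0.00791 and an adjusted p of 0.0622, which misses the threshold of 0.05. DESeq2 (adjusted p = 0.0141) and the edgeR exact test (0.0433) did call it, but it stayed uncalled in 15 of 18 alternatives. A further call came without CD11c+ replicate 2. That fit leaves only replicate 1 in the group, the library whose values rise with GC content. In CD11c- against control cells the log2 fold change was 0.23 (SE 0.131, adjusted p = 0.382), and between the NMO subsets it was 0.25 (SE 0.146, adjusted p = 0.415).

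Fcgr2b (ENSMUSG00000026656) encodes FcγRIIb, the inhibitory receptor. Its level was 272 and 368 CPM in the CD11c+ libraries, 349.7, 339 and 365 CPM in the NMO CD11c- libraries, and 281, 282 and 234 CPM in the controls. All 3 NMO CD11c- libraries were above all controls. CD11c+ replicate 1, the library whose values rise with GC content, lay within the control range. In CD11c- against control cells the log2 fold change was 0.40 (SE 0.133, 95% interval 0.11 to 0.70), with an unadjusted edgeR p of 0.0122 and an adjusted p of 0.131. The gene passed in that comparison with DESeq2 (adjusted p = 0.0485), with the 2 groups fitted alone (0.0217), after correction for GC content and length (0.0432), and without CD11c+ replicate 1 (0.025) or 2 (0.0248), libraries that enter it only through the shared estimate of spread. In CD11c+ against control cells the log2 fold change was 0.27 (SE 0.148, adjusted p = 0.251), and between the NMO subsets it was -0.13 (95% interval -0.46 to 0.20).

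Fcgrt (ENSMUSG00000003420, chromosome 7 from 45092990 to 45103851, minus strand) encodes the heavy chain of the neonatal Fc receptor. It was at 149 and 77.3 CPM in the CD11c+ libraries, 81.1, 82.2 and 84.9 CPM in the NMO CD11c- libraries, and 100.2, 101 and 89.97 CPM in the controls. The 2 CD11c+ libraries lie on opposite sides of all the others: replicate 1 is the highest of the 8 and replicate 2 the lowest. The NMO CD11c- libraries were all below the controls, with a log2 fold change of -0.23 that was not called (SE 0.19, adjusted p = 0.57). In CD11c+ cells the log2 fold change was 0.22 against controls (SE 0.212, adjusted p = 0.527) and 0.45 against CD11c- cells (SE 0.213, adjusted p = 0.341). Without CD11c+ replicate 2 these became 0.61 and 0.85 and were called (adjusted p = 0.00146 and 0.0014), in the fit that called 2019 genes higher and 2058 lower against controls and 1435 and 1581 between the subsets. Without CD11c+ replicate 1 they became -0.33 and -0.10 and were not (0.0893 and 0.786). Fcgrt has the highest GC content of the 6 genes, 55.9% in its longest transcript against 45.4% to 51.8% in the others, and CD11c+ replicate 1 is the library whose values rise with GC content. After correction for GC content and length the difference from controls was -0.03 (adjusted p = 0.93), so no direction can be given for Fcgrt in CD11c+ cells.

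**Figure D3:**
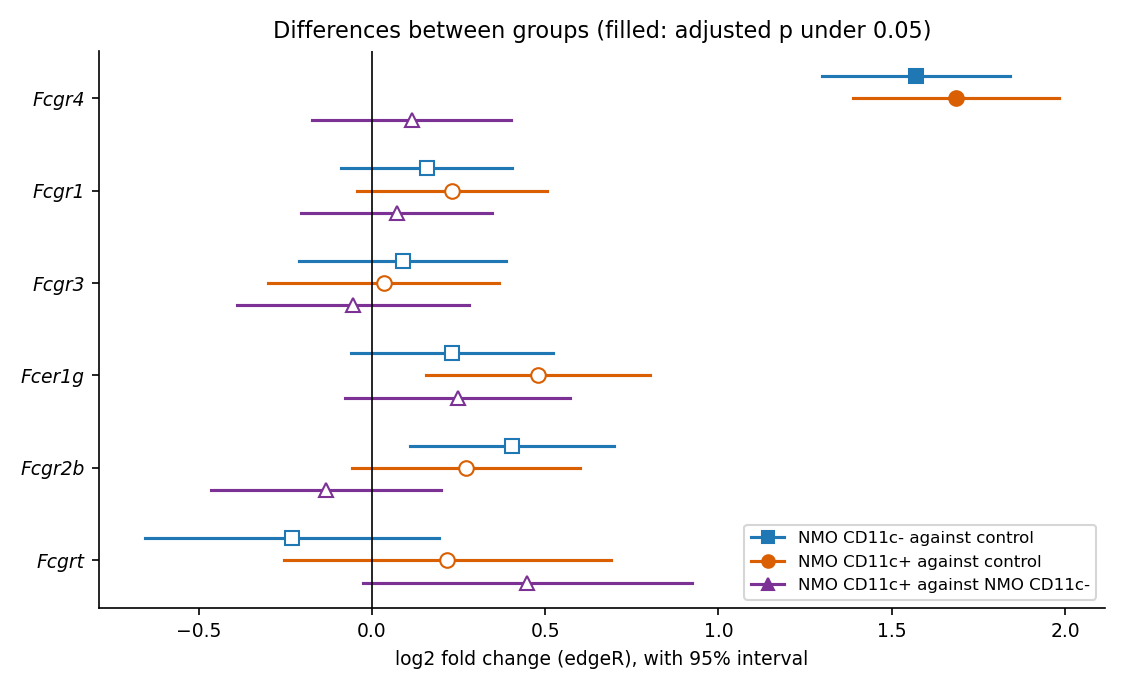
Log2 fold change of each gene with its 95% interval from the edgeR fit over all libraries, for the 3 comparisons, where filled symbols mark an adjusted p under 0.05. Fcgr4 stands at 1.57 and 1.69 against controls, and all other intervals lie below 1.

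To compare levels between genes, CPM were divided by the length of each gene's merged exons in kilobases. In control microglia Fcgr3 (492 ± 59.2 CPM per kb) and Fcer1g (397.5 ± 51.0) were the most abundant, followed by Fcgr1 (162 ± 13.9), Fcgrt (46.2 ± 2.94), Fcgr2b (45.8 ± 4.76) and Fcgr4 (12.6 ± 1.6; all SD, n = 3). The ranges of Fcgr3 and Fcer1g met, but within each control library Fcgr3 was higher (499.5 against 429.9, 547.6 against 424.0 and 429.8 against 338.8). Fcgrt and Fcgr2b overlapped, while the other steps in this order exceeded the spread. In NMO CD11c- cells the means were 524 for Fcgr3, 467 for Fcer1g, 181 for Fcgr1, 60.7 for Fcgr2b, 39.4 for Fcgrt and 37.6 for Fcgr4. There Fcgr4 overlapped Fcgrt, whereas in controls it was below every other gene. In CD11c+ cells the means were 554.5 for Fcer1g, 504 for Fcgr3, 191 for Fcgr1, 55.3 for Fcgr2b, 53.9 for Fcgrt and 40.7 for Fcgr4, and Fcgrt overlapped both Fcgr2b and Fcgr4. Fcer1g was above Fcgr3 only in replicate 1 (607.4 against 448.4), the library whose values rise with GC content. It was below Fcgr3 in replicate 2 (501.5 against 559.8). Fcgr2b depends most on the gene model, since its merged exons cover 5790 bases and its longest coding transcript 3544, and with the latter its control level was 74.9 CPM per kb.

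Of the summed length-scaled signal of the 4 Fc gamma receptors, Fcgr4 made up 1.77 ± 0.0538% in controls, 4.70 ± 0.429% in NMO CD11c- and 5.15 ± 0.0405% in CD11c+ cells. Fcgr3 remained the main receptor transcript, with 69.0 ± 0.762%, 65.1 ± 1.69% and 63.6 ± 3.96% in the same order. Fcgr1 made up 22.8%, 22.6% and 24.3%, and Fcgr2b 6.43%, 7.56% and 6.95%. The larger share of Fcgr4 therefore stood beside a smaller share of Fcgr3, whose range in controls, 68.1% to 69.5%, was above that of every NMO library.

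The balance of activating to inhibitory receptor transcripts was taken per library as the length-scaled sum of Fcgr1, Fcgr3 and Fcgr4 over that of Fcgr2b, as a description with no test. The ratio was 14.7 and 12.3 in the CD11c+ libraries, 12.7, 12.0 and 12.0 in the NMO CD11c- libraries, and 13.9, 15.2 and 14.6 in the controls. The NMO CD11c- libraries were all below the controls. Of the CD11c+ libraries, replicate 1 (14.7) lay within the control range and replicate 2 (12.3) below it. Replicate 1 is the library whose values rise with GC content. Fcgr2b, the denominator, has the lowest GC content of the Fc receptor genes described here, 45.4% in its longest transcript. Whether the GC trend bears on this split was not tested. The group means were 13.5 ± 1.73, 12.2 ± 0.426 and 14.6 ± 0.665, so neither NMO mean was above the control mean. For Fcgr4 alone the ratio to Fcgr2b went the other way, with 0.813 and 0.679 in the CD11c+ libraries, 0.6115, 0.674 and 0.579 in the NMO CD11c- libraries and 0.271, 0.286 and 0.268 in the controls. Both NMO groups were above all controls for this ratio. For Fcgr3 alone the means were 9.17, 8.63 and 10.7, and for Fcgr1 alone 3.56, 2.99 and 3.55, in the CD11c+, NMO CD11c- and control groups. The CD11c+ mean for Fcgr1 joins 4.35 in replicate 1 and 2.78 in replicate 2.

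**Figure D4:**
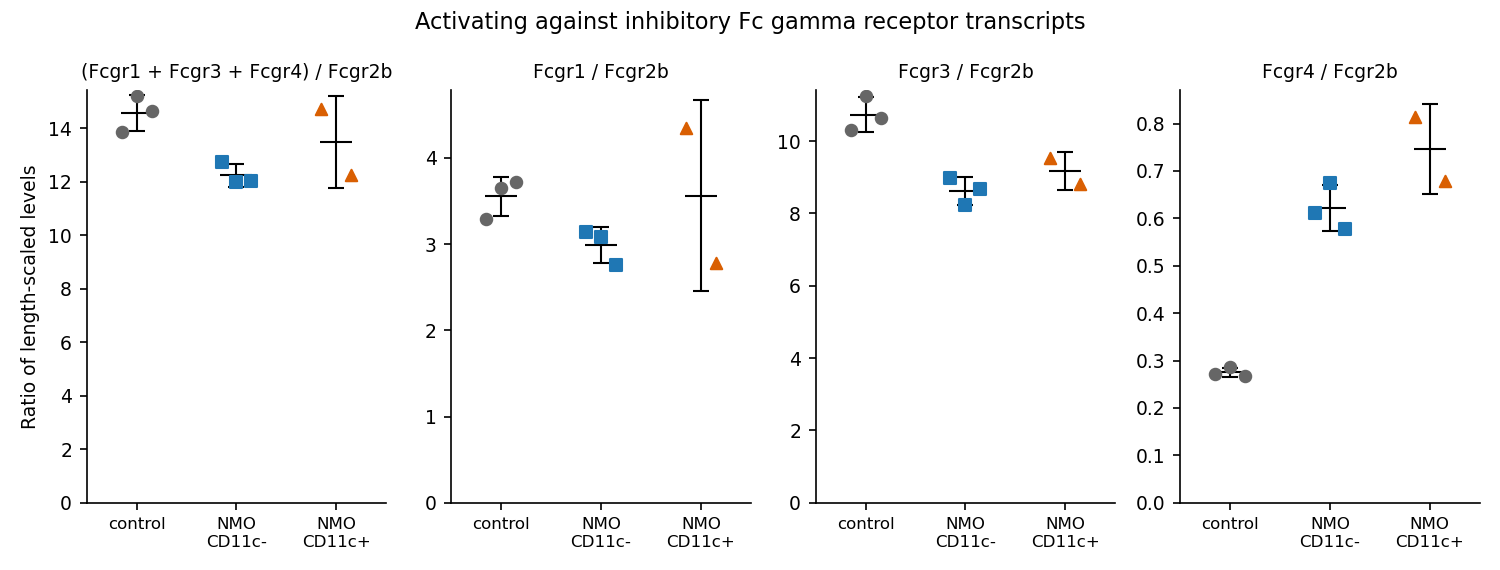
Ratio of length-scaled levels of activating receptors to Fcgr2b, with 1 point per library, a horizontal mark for the group mean and error bars for 1 SD (axes from 0). The summed ratio is lower in NMO CD11c- (12.2) than in control cells (14.6), while the ratio of Fcgr4 alone is higher in both NMO groups (0.622 and 0.746, against 0.275 in controls).

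The genes whose log2 levels followed each receptor most closely over the 8 libraries were found among 9801 genes by Pearson correlation, as a description, since the libraries fall into 3 groups and share the GC trend of 1 of them. For Fcgr4 they were Oasl2 (0.993), Slc2a6 (0.992) and Ifit3 (0.991), with Oasl2 at 75.8, 67.0 and 12.5 CPM in the CD11c+, NMO CD11c- and control groups. Like Fcgr4 itself, all 3 were close together in the NMO groups and lower in controls (27.4, 23.7 and 5.71 CPM for Slc2a6 and 36.2, 31.1 and 7.03 CPM for Ifit3). For Fcgr2b they were Srrd (0.978), Ms4a6c (0.967) and Dpm1 (0.955), for Fcer1g Pomp (0.981), Limd2 (0.981) and Trappc2l (0.979), and for Fcgr1 Krtcap3 (0.974), Fh1 (0.968) and Cbr4 (0.954). Fcgr3 had the weakest partners, Asah1 (0.928), Tmed3 (0.928) and Ehhadh (0.91). For Fcgrt, U2af2 (0.998), Nabp2 (0.993) and Ddx49 (0.984) came out, a gene whose pattern is set by the split between the 2 CD11c+ libraries.

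Receptors for other antibody classes and Fc-like receptors formed a list of 12 genes, of which 3 had enough counts for a test, and 0 of 3 were called in any of the 3 comparisons by the edgeR fit, DESeq2 or the exact test. At unadjusted p under 0.05 the counts were 0 of 3 between the subsets, 1 of 3 in CD11c- and 1 of 3 in CD11c+ cells against controls, beside 1853, 2251 and 3459 of all 12002 genes. Fcrls, an Fc receptor-like gene typical of microglia, was the most abundant, at 2019 ± 118, 2362 ± 294 and 2585 ± 242 CPM in the CD11c+, NMO CD11c- and control groups. Trim21, the cytosolic antibody receptor, was at 37.8 ± 0.601, 40.7 ± 0.472 and 32.7 ± 0.564 CPM, with a log2 fold change of 0.32 in CD11c- against control cells (SE 0.091, adjusted p = 0.0907). It was called there with the 2 groups fitted alone, after GC and length correction, and without either CD11c+ library. The receptors for IgM, Fcmr and Fcamr, had 0 counts in all 8 libraries, which allows at most 0.321 to 0.613 CPM per library. The IgE receptor subunits Fcer1a and Ms4a2, which need the Fcer1g chain in mast cells and basophils, had group means of 0.0765 to 0.449 CPM.

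Of 28 tested genes of ITAM signalling, which relays the signal of the activating receptors, 0 were called between the NMO subsets and 0 in CD11c- against control cells by the edgeR quasi-likelihood test. DESeq2 and the exact test called 0 and 1 of them between the subsets, and 2 and 1 in CD11c- against control cells. In CD11c+ against control cells 5 of 28 rose and 1 fell, beside 6.85% and 3.36% of all genes, and the median log2 fold change of the list was 0.09, beside 0.01 for all genes. Tyrobp, which encodes the ITAM adaptor DAP12, was at 690.3 ± 126 CPM against 444 ± 60.8 CPM in controls, which is 0.64 on the log2 scale (SE 0.152, adjusted p = 0.0279). The kinase gene Src (0.66, adjusted p = 0.0253), the exchange factor gene Vav2 (0.59, 0.0173), the adaptor gene Blnk (0.39, 0.0353) and the kinase gene Prkcd (0.45, 0.0392) also rose, and the exchange factor gene Sos1 fell by 0.51 (0.041). Syk, the kinase that binds phosphorylated ITAMs, was at 396 ± 76.2, 357 ± 12.0 and 407.5 ± 0.961 CPM in the CD11c+, NMO CD11c- and control groups, and was not called. These calls depend on single libraries: without any 1 of the 3 controls 0 of 28 were called, without CD11c+ replicate 1 the calls of Tyrobp, Src, Prkcd and Sos1 were lost and those of Vav2 and Blnk held, with Pik3r5 called lower in place of Sos1, and without NMO CD11c- replicate 1 or 3 they were 2 and 0. With the 2 groups fitted alone all of these calls were lost, and of the list Fgr alone was called, higher (log2 fold change 0.902, edgeR adjusted p = 0.0459). With the neutrophil covariate 0 of 28 were called. Correction for GC content and length removed the calls of Tyrobp and Sos1 (adjusted p = 0.0924 and 0.219). Without CD11c+ replicate 2 the counts were 8 and 3, and 5 and 1 between the subsets, in the fit where calls over all genes also rose, to 2019 and 2058 and to 1435 and 1581.

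Of 22 genes of the phagocytic cup and oxidant burst, 2 rose in CD11c- against control cells, beside 3.0% of all genes. These were Cybb, a subunit of the NADPH oxidase (log2 fold change 2.06, SE 0.428, adjusted p = 0.0278), and the GTPase gene Rac2 (0.60, SE 0.139, adjusted p = 0.0433). Cybb was at 228 ± 161 CPM in the NMO CD11c- group, where the neutrophil sum ran from 2067 to 10680 CPM, and neutrophils express both genes strongly. The part of these cells in the values was not tested beyond the covariate fit, in which neither was called in this comparison. In CD11c+ against control cells that edgeR fit did call Cybb, at a log2 fold change of 6.53 (adjusted p = 0.014). Its means there were 118.9 and 54.92 CPM, and the covariate separates the CD11c+ libraries from the others. Both calls in CD11c- against control cells were also lost without any 1 of the 3 controls, and that of Rac2 without NMO CD11c- replicate 1 or 2. In CD11c+ against control cells the actin nucleator subunit gene Arpc1b (0.79, adjusted p = 0.0279) and the oxidase subunit gene Cyba (0.46, adjusted p = 0.0497) rose, beside 6.85% of all genes, and 1 gene fell, beside 3.36%. Elmo1, whose product activates Rac in engulfment, fell to 296 ± 41.0 CPM from 488 ± 36.1 CPM, which is -0.72 on the log2 scale (SE 0.134, adjusted p = 0.00964). Elmo1 stayed called without each of the 8 libraries in turn but not with the neutrophil covariate (adjusted p = 0.908), whereas the calls of Arpc1b and Cyba were lost without CD11c+ replicate 1 or any 1 control. The Cyba call was also lost without NMO CD11c- replicate 1 or 3 and after correction for GC content and length (adjusted p = 0.443). Between the subsets 0 of 22 were called by the quasi-likelihood test, 0 by DESeq2 and 1 by the exact test.

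Of 18 tested genes of ITIM inhibition, the arm that FcγRIIb uses, 1 rose in CD11c- and 2 fell in CD11c+ against control cells, beside 3.0% of all genes called higher in the former and 3.36% called lower in the latter comparison, and the list medians were -0.02 and -0.06. The inhibitory receptor gene Pirb rose to 51.5 ± 12.8 CPM from 28.6 ± 2.77 CPM, which is 0.85 on the log2 scale (SE 0.181, adjusted p = 0.0321), a call lost without NMO CD11c- replicate 2 or any 1 control. The ubiquitin ligase gene Cbl (-0.69, adjusted p = 0.0236) and the phosphatase gene Inpp4b (-0.92, adjusted p = 0.0465) fell. The Cbl call was lost without CD11c+ replicate 1 or control replicate 1 or 3, and the Inpp4b call without CD11c+ replicate 1, any 1 NMO CD11c- library or any 1 control. The calls of all 3 genes were lost with the neutrophil covariate, and those of Cbl and Inpp4b with the 2 groups fitted alone. Inpp5d, which encodes the phosphatase SHIP1 that FcγRIIb recruits, was at 1452 ± 171, 1408 ± 107 and 1532 ± 57.9 CPM in the CD11c+, NMO CD11c- and control groups, and its log2 fold changes were -0.12 and -0.08 against controls, not called. Between the subsets 0 of 18 genes were called by the quasi-likelihood test, DESeq2 or the exact test.

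Of 7 genes for partners of IgG and its receptors, B2m alone was called by the quasi-likelihood test, higher in both NMO groups against controls, where 3.0% and 6.85% of all genes were. DESeq2 and the exact test each called 2 of 7 higher in CD11c- against control cells, B2m and Lgals3. For CD11c+ cells the exact test called the same pair, and DESeq2 called 5 of 7 higher, with C1qa, C1qc and Itgb2 added. B2m encodes beta-2-microglobulin, the light chain shared by the neonatal Fc receptor and MHC class I. It was at 2774 ± 441, 2333 ± 8.62 and 1353 ± 81.0 CPM in the CD11c+, NMO CD11c- and control groups. Against control cells this was 1.04 on the log2 scale in CD11c+ (SE 0.13, adjusted p = 0.00117) and 0.79 in CD11c- cells (SE 0.119, adjusted p = 0.00631). B2m was thus higher in both NMO groups, whereas its partner Fcgrt was called in neither, and whether these 2 genes differ in their change was not tested. The complement gene C1qa, whose product binds IgG in immune complexes, was at 4573 ± 1486, 3282 ± 50.8 and 3193 ± 202 CPM and was not called by the quasi-likelihood test. Its CD11c+ mean joins libraries at 3522 and 5624 CPM.

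Genes of the interferon gamma axis and of myeloid transcription factors were read from a further list. The receptor gene Ifngr2 rose in CD11c+ against control cells (log2 fold change 0.53, SE 0.109, adjusted p = 0.0156), a call lost without control replicate 1 or 2, with the 2 groups fitted alone and with the neutrophil covariate. Irf1 was at 128 ± 1.74, 108 ± 2.997 and 108 ± 14.2 CPM in the CD11c+, NMO CD11c- and control groups and was not called, nor was Spi1, which encodes PU.1 (log2 fold changes -0.09 and 0.10 against controls). B2m stayed called against controls in both NMO groups without each of the 8 libraries in turn, but in neither with the neutrophil covariate (adjusted p = 0.496 in CD11c- and 1 in CD11c+ cells). In both of these lists 0 genes were called between the NMO subsets by the quasi-likelihood test, DESeq2 or the exact test.

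**Figure D5:**
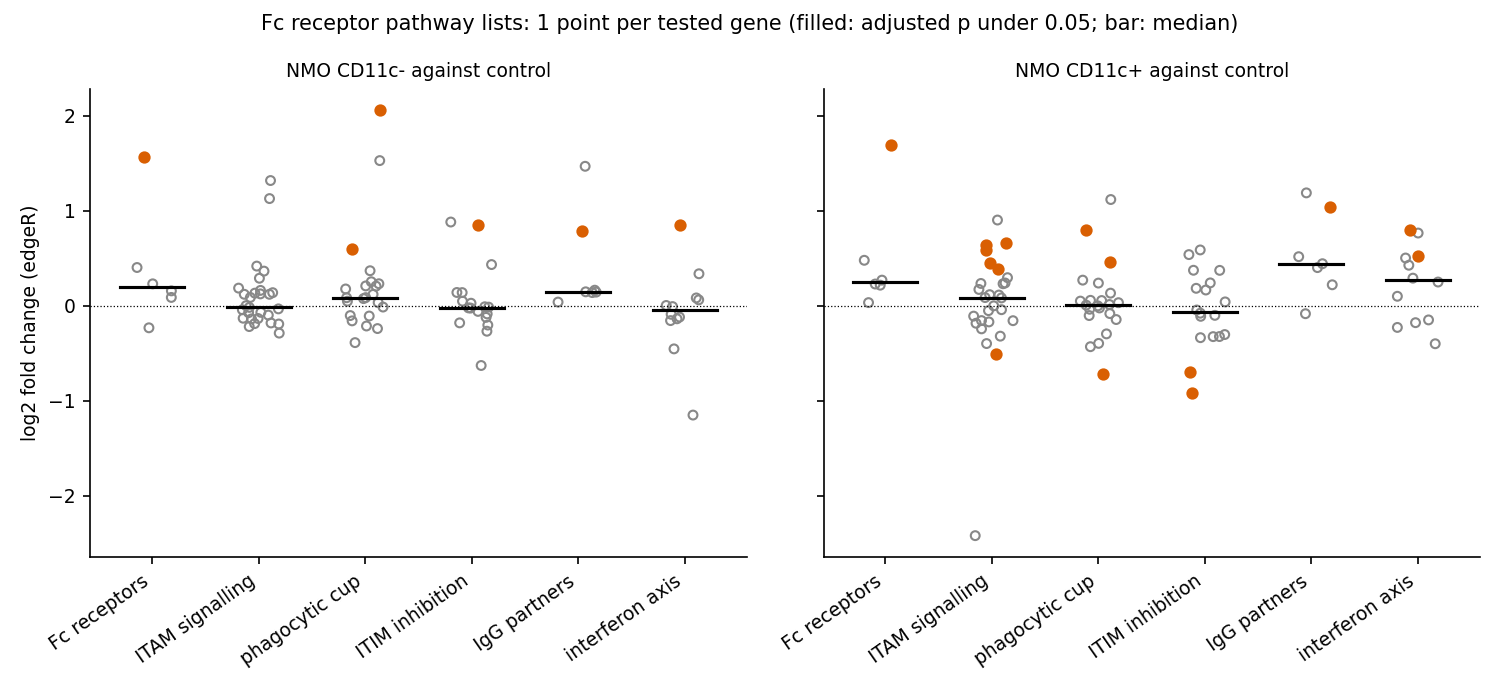
Log2 fold changes of the tested genes of each list (1 point per gene, spread sideways for clarity) in CD11c- (left) and CD11c+ (right) against control cells, with a bar at the list median and filled points for an adjusted p under 0.05. Fcgr4 is the filled point among the Fc receptors at 1.57 and 1.69, and the medians of the signalling lists lie near 0.

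Markers of other cells that carry Fc receptors were read in the same libraries. Of 8 natural killer cell genes the summed level was at most 0.753 CPM in any library. Of 8 B cell genes Cd79b was at 26.02 to 30.1 CPM in group means, while Ms4a1 had 0 or 1 count per group, and Pax5 and Blk had 0 counts in all libraries. Mast cell and basophil genes summed to 2.04 to 2.995 CPM in the CD11c+, 11.5 to 44.4 CPM in the NMO CD11c- and 6.85 to 12.7 CPM in the control libraries. Genes of border-associated macrophages summed to 65.0 and 132 CPM in the CD11c+ libraries, 112.5 to 145 CPM in the NMO CD11c- and 48.4 to 120.2 CPM in the control libraries. Ms4a7 among them was at 6.555, 7.81 and 2.51 CPM in these groups. It was the 1 of 8 called higher in CD11c- against control cells, beside 3.0% of all genes, and 0 of 8 were called in CD11c+ against control cells. Dendritic cell genes summed to 23.4 to 24.7, 21.0 to 26.1 and 15.8 to 20.03 CPM, and Flt3 among them was at 8.18, 5.92 and 1.70 CPM and was called higher in both NMO groups than in controls. The part of these cells in the Fc receptor values was not tested.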

How the data were processed

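RNA was sequenced from 8 libraries of sorted microglia, and the authors deposited 1 table of gene counts per library. The submitters' processing notes name STAR 2.3.11, HTSeq 0.5.4, edgeR 3.12.0 and the build GRCm38. Strand setting, read length and annotation release are not stated there. Gene symbols, lengths and GC content came from GENCODE M21 (40254 of 41388 identifiers matched, and the other 1134 hold 0.155% of counts). No column of per-sample values was left unused.

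The deposited counts were tested with edgeR 4.0.16 in R 4.3.3. A minimum count of 10 in edgeR's filterByExpr left 12002 genes, with TMM scaling of the libraries. A single quasi-likelihood fit held all 8 (common dispersion 0.0223, with 5 residual and 5.08 prior degrees of freedom), so that the 3 groups share 1 estimate of spread. Comparisons were contrasts of group means, and a gene was called where its p, adjusted by Benjamini-Hochberg over all genes tested, was under 0.05. The steps were tested on simulated counts. Within groups no 2 libraries were identical (chi-square per degree of freedom 6.22 to 34.5). Levels per kilobase use merged exons. Promoters came from RefSeq (GRCm38.p6) and matched all 6 genes.

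Alternatives were each library left out in turn, a neutrophil covariate, an offset per library for GC content and length (99.53% of tested genes have both), a fit of only the 2 groups compared, edgeR's exact test, DESeq2 1.42.0, other scalings, and no filter or a stricter filter on low counts. The balance was also taken without lengths, per receptor and, chosen after seeing the data, with the longest coding transcript. The genes named are the 6 receptors, the 3 genes closest to each, and, on the pathway lists, called genes and central members. The 6 genes and the lists were chosen with earlier results of these data known, and central members that were not called, and genes called only under an alternative, were named after their values were seen. Of the list genes, Lilrb4a found no match. Some genes of the lists are not reported here.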

Additional observations from a re-analysis of the deposited data

How the results depend on the processing

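Fcgr4 was called higher in CD11c- against control cells in all 18 alternatives tried (log2 fold change 1.44 to 1.65, adjusted p at most 0.0371) and in CD11c+ against control cells in 17 of 18 (1.58 to 1.77), the exception being the neutrophil covariate (adjusted p = 0.725). The number of the 6 receptors called between the NMO subsets was 0 and ranged from 0 to 1 over the libraries left out (Fcgrt, without CD11c+ replicate 2). In CD11c- against control cells it went from 1 to 2 with DESeq2, with only the 2 groups compared and after GC and length correction, and ranged from 1 to 2 over the libraries left out (Fcgr2b added, without either CD11c+ library). In CD11c+ against control cells it went from 1 to 2 with DESeq2 and the exact test (Fcer1g added), to 0 with the neutrophil covariate, and ranged from 1 to 3 over the libraries left out (Fcer1g and Fcgrt added, without CD11c+ replicate 2). The log2 difference in activating to inhibitory balance was 0.134 between the subsets (0.00312 to 0.265 over the CD11c+ libraries left out, 0.261 for Fcgr4 alone), -0.25 for CD11c- against control cells (-0.315 for Fcgr3 alone, 1.17 for Fcgr4 alone) and -0.116 for CD11c+ against control cells (-0.247 to 0.0146 over the CD11c+ libraries left out, 1.43 for Fcgr4 alone).

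Each log2 fold change whose sign turned was uncalled under that alternative. With the neutrophil covariate they were, between the subsets, -0.238 for Fcgr1, -0.0329 for Fcgr4, -0.136 for Fcer1g and -0.504 for Fcgrt; for CD11c- against control cells 0.00188 for Fcgrt; and for CD11c+ against control cells -0.00335 for Fcgr1, -0.216 for Fcgr2b, -0.642 for Fcgr3, -0.502 for Fcgrt, -0.015 for Src and -0.0346 for Tyrobp. In CD11c+ against control cells Fcgr3 was also at -0.00711 with no low-count filter and -0.0366 after GC and length correction, and Fcgrt at -0.0269 after that correction. Signs also turned without CD11c+ replicate 1 (Fcgr1, Fcgr2b, Fcgr3 and Fcgrt between the subsets, Fcgrt against controls), CD11c+ replicate 2 (Fcgr3) or control replicate 3 (Fcgr3). Over the libraries left out, the ranges were, between the subsets, -0.0356 to 0.171 for Fcgr1, -0.37 to 0.0682 for Fcgr2b, -0.225 to 0.0964 for Fcgr3 and -0.0975 to 0.848 for Fcgrt, -0.000622 to 0.172 for Fcgr3 in CD11c- against control cells, and -0.138 to 0.183 for Fcgr3 and -0.331 to 0.615 for Fcgrt in CD11c+ against control cells. The causes were not tested. No paired analysis was possible because the replicate numbers follow the order of deposit and the labels link no libraries across groups. The CD11c+ group has 2 libraries of the lowest depth, and for each of the 6 genes both comparisons that use it had a larger standard error than CD11c- against control cells.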
